A study of Mus musculus with 4 samples.

Results

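Proliferating T cells take up amino acids through a small set of plasma membrane carriers of the solute carrier (Slc) families, and 10 of these carriers were examined in induced regulatory T (iTreg) cells that were cultured with or without added iron. They are defined by a list of gene symbols: the 10 symbols Slc7a5, Slc3a2, Slc7a6, Slc43a1, Slc1a5, Slc1a4, Slc38a1, Slc38a2, Slc7a1 and Slc6a6 each matched 1 of the 47729 gene rows of the count table. The question was which transcripts respond to iron in these cells. CD4 T cells of C57BL/6 mice (tissue given as spleen), naive per the methods, were activated with antibodies against CD3 and CD28. They were differentiated in medium with IL-2 at 100 U/mL, TGF-β at 5 ng/mL and blocking antibodies against IFN-γ and against IL-4 at 5 µg/mL. Both groups received all of these. The FeSO4 group also received ferrous sulfate at 50 µM and the Mock group received PBS, in each case for 4 days. RNA of whole cultures was sequenced from 2 libraries per group, which per the methods came from 2 independent experiments. Per the methods the mice were young adults of matched age, and the sex of those behind these libraries was not stated.

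Several of these carriers work together. LAT1 (encoded by Slc7a5) brings in leucine and other large neutral amino acids, and reaches the cell surface only when joined to the CD98 heavy chain (Slc3a2). LAT1 is an exchanger that trades an amino acid already inside the cell, such as glutamine, for one outside. ASCT2 (Slc1a5) and the sodium-coupled carriers SNAT1 and SNAT2 (Slc38a1, Slc38a2) bring glutamine and other small neutral amino acids into the cell. T cells raise LAT1, CD98 and ASCT2 upon activation, and the leucine they import helps to activate the kinase complex mTORC1.

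The gene rows held 35183187 to 40859178 reads per library. Values are given as CPM, the count of a gene relative to the library's total, scaled by edgeR's trimmed mean of M values (TMM), as mean ± SD of the 2 libraries of a group. Genes of CD4 T cells (6 markers, 2774 to 3205 CPM in sum) and of iTreg cells (Foxp3, Il2ra and Ctla4, 1995 to 2427 CPM) were abundant in all libraries, both NK cell markers had 0 reads, and the sums for CD8 T cells (2 markers, 9.04 to 11.02 CPM) and B cells (3 markers, 1.84 to 2.81 CPM) were low. Among the CD4 T cell markers, Cd3g, Cd5 and Trac were higher in FeSO4 by edgeR (adjusted p under 0.05). Their log2 fold changes were 0.50, 0.21 and 0.19, while Cd3e, Cd4 and Lck did not pass. Foxp3 itself, the lineage factor of these cells, was lower in FeSO4 (376 and 472 CPM) than in Mock (587 and 693 CPM). Its log2 fold change was -0.59 (edgeR adjusted p = 0.000223). Il2ra and Ctla4 did not share this fall. For each of them the libraries overlapped between the groups, with log2 fold changes (FeSO4 against Mock) of 0.02 for Il2ra and 0.17 for Ctla4. The red cell gene Hba-a1 was higher in FeSO4 (37.5 and 32.5 CPM) than in Mock (24.5 and 19.6 CPM), and the 4 myeloid markers summed to 4.36 CPM in Mock replicate 1 and to at most 0.191 CPM elsewhere. Their part in the results was not tested.

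The carriers did not move as a block. Slc1a4, Slc3a2 and Slc7a5 rose in FeSO4, Slc6a6 fell, and the other 6 did not pass the threshold of edgeR's quasi-likelihood test (adjusted p under 0.05). These 4 calls of 10 (3 higher, 1 lower) stand beside 20.0% of all 13732 tested genes called in either direction, 10.9% called higher and 9.17% called lower. Without Mock replicate 2, 1 Mock library remained. The log2 fold changes were then 0.34 for Slc3a2, 0.19 for Slc7a5, 0.71 for Slc1a4 and -0.16 for Slc6a6. The changes were small except for the pair of carriers of lowest level: the median absolute log2 fold change was 0.20 over the 10 carriers, as it was over all tested genes. The median log2 fold change was 0.08, against -0.00 over all genes. All 10 carriers passed the filter on low counts, and 8 of them exceeded 50 CPM in every library. At the threshold the study set (unadjusted p under 0.05 and a log2 change of 0.5 or more in either direction), applied here to edgeR's p although the study used DESeq2, 1 carrier was higher (Slc1a4) and 1 was lower (Slc43a1), where 4.67% and 5.73% of all tested genes were called, 10.4% together. Slc43a1 no longer met this threshold with DESeq2, without Mock replicate 2, without FeSO4 replicate 1 and without the filter on low counts, and with at least 10 counts required in every library it was not tested.

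**Figure D1:**
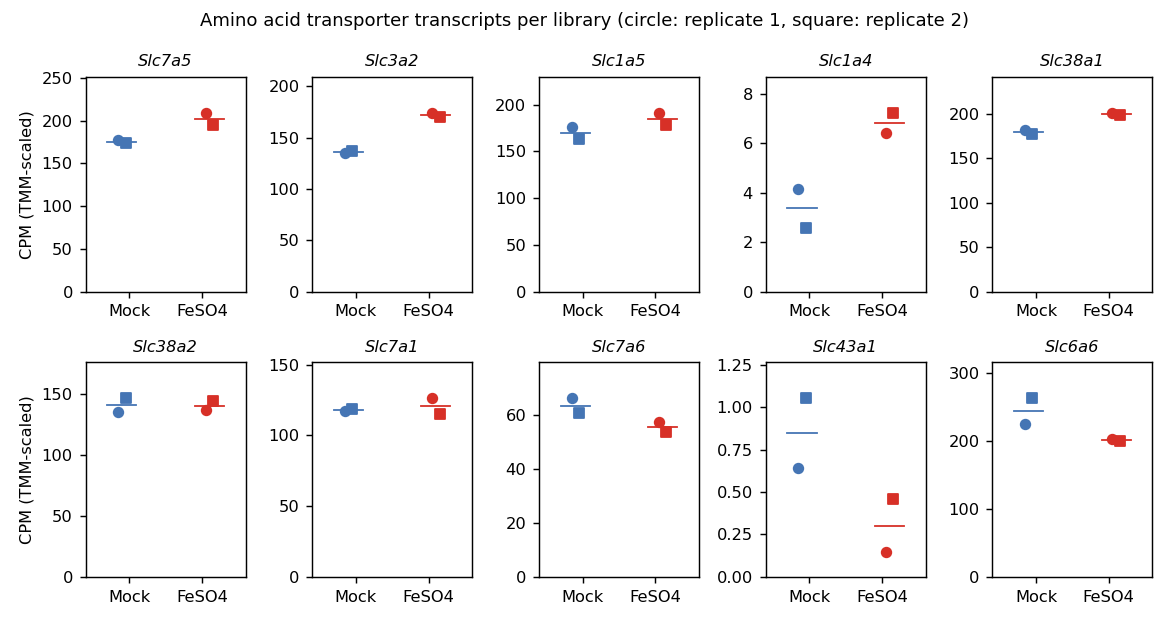
TMM-scaled CPM of each carrier in the 2 Mock libraries (blue) and the 2 FeSO4 libraries (red), 1 panel per gene with a linear axis that starts at 0; circles are replicate 1, squares replicate 2, and lines the group means. Slc1a4 lies between 2.58 and 4.17 CPM in Mock and between 6.42 and 7.24 CPM in FeSO4, whereas the libraries of Slc38a2 and Slc7a1 overlap between groups.

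Both FeSO4 libraries lay above both Mock libraries for 5 carriers (Slc7a5, Slc3a2, Slc1a5, Slc1a4, Slc38a1) and below them for 3 (Slc7a6, Slc43a1, Slc6a6), while the groups overlapped for Slc38a2 and Slc7a1. Over all tested genes, 30.1% lay entirely above and 29.4% entirely below, 59.5% together. Summed over the 10 carriers, the level was 1218 and 1244 CPM in Mock, against 1305 and 1264 CPM in FeSO4, a difference of the means of 53.4 CPM (4.34%). With library sizes alone as the scale this difference was -2.99 CPM, so the sum gave no direction. CPM is a share of each library's RNA, in which fewer cells that express a gene and less RNA per cell cannot be told apart.

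The CD98 heavy chain, the shared partner of several light chains, rose in FeSO4. Slc3a2 (ENSMUSG00000010095, chr19:8706882-8723369 on GRCm38.p6) stood at 135 and 137 CPM in Mock, against 174 and 170 CPM in FeSO4. The groups were well separated and the libraries of each group close together. The increase was 26.4%, a log2 fold change of 0.34 ± 0.06 (SE; 95% interval 0.20 to 0.47; edgeR adjusted p = 0.00142). It passed the threshold in 13 of 13 alternative analyses (adjusted p from 3.89e-05 to 0.0331).

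LAT1, the light chain that imports leucine, rose less and less firmly. Slc7a5 (ENSMUSG00000040010, chr8:121881146-121907686) was at 177 and 174 CPM in Mock, against 209 and 195 CPM in FeSO4. Its libraries did not overlap, but the FeSO4 libraries lay farther apart than the Mock libraries. The increase was 15.2%, a log2 fold change of 0.20 ± 0.06 (SE; 95% interval 0.07 to 0.34; edgeR adjusted p = 0.0352). The call held in 7 of 13 alternatives (adjusted p from 0.0115 to 0.289). It was lost without Mock replicate 1 (0.21, adjusted p = 0.0737), without Mock replicate 2 (0.19, adjusted p = 0.115) and without FeSO4 replicate 1 (0.15, adjusted p = 0.289), and also with upper-quartile scaling, with library sizes alone and without the filter on low counts.

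y+LAT2 (Slc7a6), another light chain of CD98, exchanges cationic amino acids such as arginine for neutral ones and sodium. Slc7a6 (ENSMUSG00000031904, chr8:106168219-106198714) had 66.2 and 60.7 CPM in Mock, against 57.3 and 53.6 CPM in FeSO4. Both FeSO4 libraries were the lower ones, opposite in direction to Slc7a5 and Slc3a2. The log2 fold change of -0.19 ± 0.08 (SE; 95% interval -0.37 to -0.02) had an unadjusted p of 0.0284 and did not pass after adjustment (edgeR adjusted p = 0.105). With library sizes alone it passed (-0.26, adjusted p = 0.0304; range over the alternatives 0.0304 to 0.408).

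Per kilobase of exon, the ratio of Slc7a5 to Slc3a2 reads was 1.10 and 1.07 in Mock and 1.01 and 0.966 in FeSO4. The ratio of Slc7a5 to Slc7a6 was 2.84 and 3.03 in Mock and 3.87 and 3.86 in FeSO4, a difference of 0.40 on the log2 scale. Neither ratio overlapped between the groups. For each of the 4 pairs of carriers compared, an exact two-sided permutation test over libraries gave p = 0.333, the smallest value that this test can give with 2 libraries against 2, so its outcome was fixed by the size of the groups.

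**Figure D2:**
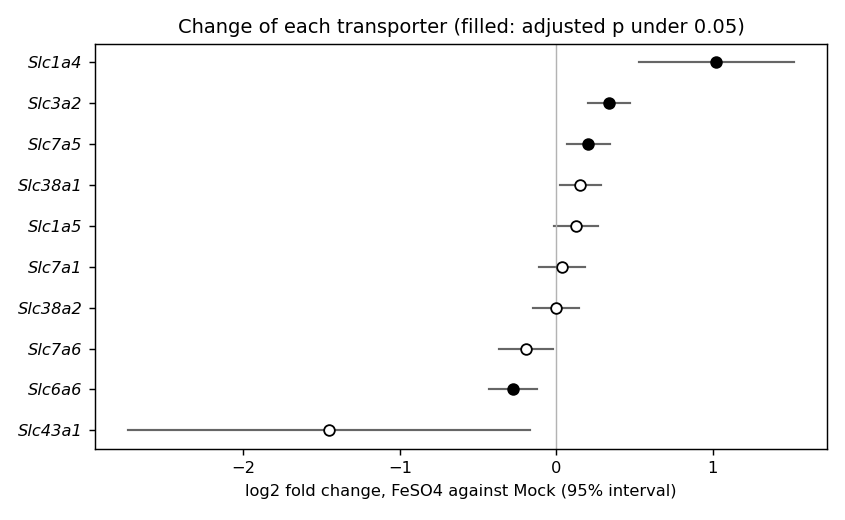
Log2 fold change of each carrier, FeSO4 against Mock, from edgeR's quasi-likelihood fit (points) with its 95% interval (lines), filled where the adjusted p was under 0.05. Slc1a4 at 1.02 and Slc43a1 at -1.45 are the extremes and have the widest intervals, and the 8 carriers between them lie from -0.28 to 0.34.

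LAT3 (Slc43a1), which carries leucine and other large neutral amino acids without CD98, was barely present. Slc43a1 (ENSMUSG00000027075, chr2:84838855-84863586) had 26 and 44 reads in Mock and 5 and 17 in FeSO4, or 0.641, 1.05, 0.146 and 0.459 CPM. The 95% Wilson intervals, which cover counting error only, ran from 0.437 to 0.939 and from 0.784 to 1.41 CPM in the Mock libraries, and from 0.0623 to 0.342 and from 0.287 to 0.736 CPM in the FeSO4 libraries. The FeSO4 libraries were the lower ones, but the intervals of Mock replicate 1 and FeSO4 replicate 2 overlapped. The log2 fold change was -1.45 ± 0.61 (SE; 95% interval -2.74 to -0.17), with an unadjusted p of 0.0291 and an edgeR adjusted p of 0.107. It ranged from -2.52 without FeSO4 replicate 2 to -0.88 without FeSO4 replicate 1, and passed adjustment in none of 12 alternatives (adjusted p from 0.0636 to 0.480).

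ASCT1 (Slc1a4), a sodium-dependent exchanger of alanine, serine, cysteine and threonine, showed the largest increase among the 10 carriers. Slc1a4 (ENSMUSG00000020142, chr11:20302180-20332713) had 169 and 108 reads in Mock and 220 and 268 in FeSO4, which is 4.17 and 2.58 CPM against 6.42 and 7.24 CPM. Each FeSO4 library exceeded each Mock library also in its Wilson interval: the upper bound was 4.84 CPM in Mock replicate 1 and 3.12 CPM in Mock replicate 2, and the lower bounds were 5.63 and 6.42 CPM in FeSO4. The mean went from 3.37 ± 1.12 to 6.83 ± 0.579 CPM (SD, n = 2 each), and edgeR's fitted fold was 2.03. The log2 fold change was 1.02 ± 0.24 (SE; 95% interval 0.53 to 1.52; edgeR adjusted p = 0.00553). The Mock libraries differed from each other beyond their Wilson intervals, and without Mock replicate 2 the value was 0.71 and no longer passed (adjusted p = 0.0866). The call held in 11 of 13 alternatives (adjusted p from 0.00106 to 0.0866), the other loss being the analysis without the filter on low counts.

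The start site of Slc1a4 carries the letters of an amino acid response element, the type of site at which ATF4 acts with C/EBP factors, and its window is shown for that reason. Promoter windows from RefSeq (GRCm38.p6, 250 bases before to 50 after a start) were searched for 6 of the 10 carriers (8 windows), and those of Slc7a5, Slc1a5, Slc38a1 and Slc6a6 were not analysed here. Both strands were searched for TGATGNAA and for the E-box CACGTG. In the sequences below, read 5′ to 3′ on the gene's strand, capitals mark the match.
Slc1a4 promoter (chr11:20332701-20332728, minus strand): tgcctcctgcgTTGCATCAtctccagcc
Slc43a1 promoter (chr2:84840248-84840275, plus strand): gggtctccctcCACGTGgcagccgtggg
In Slc1a4 the match reads TGATGCAA on the other strand and begins at position -4 from the start site; in Slc43a1 the E-box begins at -64. TGATGNAA was present in 1 of the 8 windows and in 3.97% of all 32851 windows, and CACGTG in 1 of the 8 and in 7.15% of all. A match of letters is not evidence of binding.

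ASCT2 (Slc1a5), the paralog that carries glutamine, was much more abundant and did not pass the test. Slc1a5 (ENSMUSG00000001918, chr7:16781334-16798274) had 176 and 163 CPM in Mock, against 191 and 178 CPM in FeSO4. The groups lay next to each other with almost no gap between Mock replicate 1 and FeSO4 replicate 2. The log2 fold change was 0.13 ± 0.07 (SE; 95% interval -0.02 to 0.27; edgeR adjusted p = 0.214), below the threshold in 13 of 13 alternatives as well. Per kilobase, Slc1a5 exceeded Slc1a4 by 39.9-fold and 59.6-fold in the Mock libraries and by 28.1-fold and 23.3-fold in the FeSO4 libraries.

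SNAT1 and SNAT2 are encoded next to each other on chromosome 15. Slc38a1 (ENSMUSG00000023169, chr15:96571418-96643438) had 181 and 178 CPM in Mock, against 201 and 199 CPM in FeSO4. Slc38a2 (ENSMUSG00000022462, chr15:96687392-96699728) had 135 and 146 CPM in Mock, against 136 and 144 CPM in FeSO4. The libraries of Slc38a1 did not overlap between groups, whereas those of Slc38a2 lay within the same range.

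For Slc38a1 the log2 fold change was 0.15 ± 0.06 (SE; 95% interval 0.02 to 0.29), with an unadjusted p of 0.0248 and an edgeR adjusted p of 0.0958. For Slc38a2, which cells raise when amino acids run short, it was -0.00 ± 0.07 (SE; edgeR adjusted p = 0.99). The 95% interval of Slc38a2, -0.15 to 0.14, did not reach 0.34, the value of Slc3a2. Its sign turned with the library left out (-0.07 to 0.06). With the replicate number as a block, an alternative to the main fit, Slc38a1 passed narrowly (edgeR adjusted p = 0.0474). The ratio of Slc38a1 to Slc38a2 per kilobase was 0.743 and 0.670 in Mock and 0.814 and 0.759 in FeSO4.

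CAT1 (Slc7a1), the main importer of arginine and lysine in many cells, did not differ beyond the spread of its libraries. Slc7a1 (ENSMUSG00000041313, chr5:148327410-148399904) had 117 and 119 CPM in Mock, against 126 and 115 CPM in FeSO4, so that the Mock libraries lay between the FeSO4 libraries. The log2 fold change was 0.04 ± 0.07 (SE; 95% interval -0.11 to 0.18; edgeR adjusted p = 0.776). It turned negative with library sizes alone (-0.03) and without FeSO4 replicate 1 (-0.03).

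The taurine transporter TauT (Slc6a6) was the only carrier called lower at an adjusted p under 0.05. Slc6a6 (ENSMUSG00000030096, chr6:91684048-91759063) had 226 and 263 CPM in Mock, against 203 and 201 CPM in FeSO4. The FeSO4 libraries were close to each other and lay below both Mock libraries. The Mock mean was 244 ± 26.7 CPM and the FeSO4 mean 202 ± 1.25 CPM (SD, n = 2 each), a difference of -17.4%. This was a log2 fold change of -0.28 ± 0.07 (SE; 95% interval -0.43 to -0.12; edgeR adjusted p = 0.0126). Without Mock replicate 2 the value was -0.16 and did not pass (adjusted p = 0.150). The call held in 11 of 13 alternatives (adjusted p from 0.00152 to 0.150), and was also lost without the filter on low counts.

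**Figure D3:**
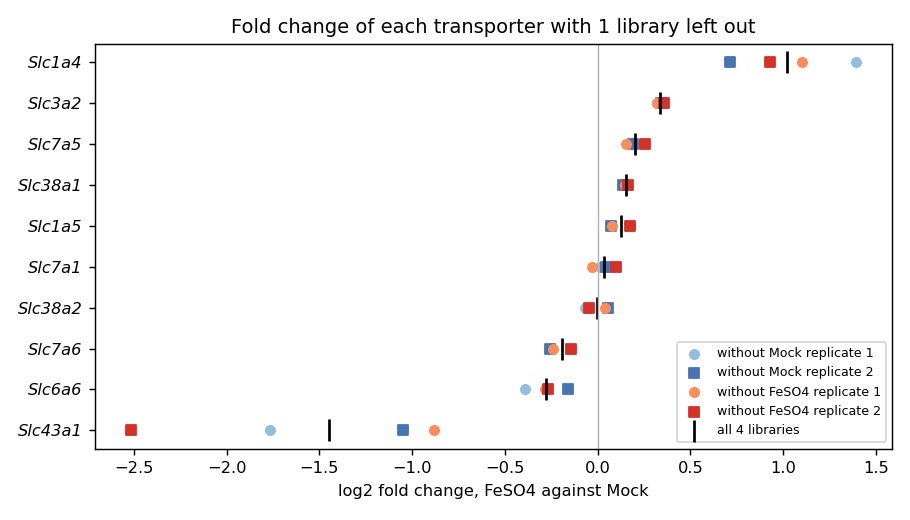
Log2 fold change of each carrier, FeSO4 against Mock, with all 4 libraries (black bars) and with each library left out in turn (circles and squares). Slc3a2 stays between 0.32 and 0.36, while Slc1a4 runs from 0.71 to 1.39 and Slc43a1 from -2.52 to -0.88; the sign changes for Slc38a2 and Slc7a1.

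Levels were compared between carriers as CPM per kilobase of annotated exon, averaged over all 4 libraries. The order was Slc7a5 (53.7), Slc3a2 (52.1), Slc1a5 (42.6), Slc6a6 (36.2), Slc38a2 (30.3), Slc38a1 (22.6), Slc7a6 (15.9), Slc7a1 (15.9), Slc1a4 (1.30) and Slc43a1 (0.101). Slc7a5 led Slc3a2 in Mock (49.9 ± 0.724 against 46.0 ± 0.294, SD, n = 2 each), whereas in FeSO4 the pair overlapped (57.5 ± 2.86 against 58.1 ± 1.05). Slc1a5 and Slc6a6 overlapped in Mock but not in FeSO4, and Slc7a6 and Slc7a1 overlapped over all libraries. The order at the top rests on the gene model: with the longest annotated transcript as the length, Slc1a5 came first (63.1), before Slc3a2 (54.7) and Slc7a5 (53.7).

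Among 48 further amino acid transporters, most had few reads or none: 31 did not pass the filter on low counts, and 29 of these had at most 13 reads in every library. Of the 17 tested, 2 were higher and 1 was lower in FeSO4 (17.6%, against 20.0% of all genes), with a median log2 fold change of -0.11. With 1 library left out, which leaves 1 library in a group, each called gene kept its sign. The log2 fold change of Slc6a9 then ranged from 1.52 to 3.93. TAT1 (Slc16a10), which moves aromatic amino acids down their gradient, went from 10.6 and 11.4 CPM in Mock to 20.3 and 20.9 CPM in FeSO4. The log2 fold change was 0.90 ± 0.12 (SE; edgeR adjusted p = 8.96e-05), and the call held in 13 of 13 alternatives.

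LAT4 (Slc43a2), a relative of LAT3 that carries branched-chain amino acids, phenylalanine and methionine, fell from 123 CPM in both Mock libraries to 85.1 and 93.3 CPM in FeSO4. Its log2 fold change was -0.46 ± 0.07 (SE; edgeR adjusted p = 0.000264), again in 13 of 13 alternatives. The glycine transporter GlyT1 (Slc6a9) had 3 and 17 reads in Mock and 46 and 38 reads in FeSO4, a log2 fold change of 2.26 ± 0.60 (SE; edgeR adjusted p = 0.0133). Its Mock libraries differed widely, and without Mock replicate 1 the value was 1.52 (adjusted p = 0.111; range over the alternatives 0.00562 to 0.116), and without Mock replicate 2 it was 3.93. Exons of Slc6a9 overlap genes on the other strand, and whether the counting used strand is not given in the sources used here. At the study's threshold, 3 of the 17 were higher and 0 were lower; by edgeR's unadjusted p alone 2 were lower. Over all genes this threshold called 4.67% higher and 5.73% lower.

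Leucine and arginine, which some of these carriers import, are read by sensors that act on mTORC1 through the Rag GTPases. Of 35 genes of amino acid sensing and mTORC1, all tested, 8 were lower and 1 was higher in FeSO4 (25.7%, against 20.0% of all genes). Their median log2 fold change was -0.05. With 1 library left out, which leaves 1 library in a group, each called gene kept its sign. The log2 fold change of Sesn3 then ranged from -0.33 to -0.14. Castor1, the arginine sensor, fell from 43.2 and 46.4 CPM in Mock to 26.2 and 29.6 CPM in FeSO4 (log2 fold change -0.68 ± 0.10, SE; edgeR adjusted p = 9.84e-05). Its paralog Castor2 fell from 25.4 ± 1.14 to 17.6 ± 2.07 CPM (SD, n = 2 each; edgeR adjusted p = 0.0041).

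The further genes called lower were Akt1s1, Rragd, Nprl3, Mlst8, Tsc2 and Sesn3. Akt1s1, which encodes the mTORC1 inhibitor PRAS40, fell by 0.47 ± 0.10 on the log2 scale (SE; edgeR adjusted p = 0.00262). Rragd, a Rag GTPase that recruits mTORC1 to the lysosome, fell by 0.38 ± 0.09 (SE; adjusted p = 0.00632). Nprl3, a subunit of the inhibitory GATOR1 complex, fell by 0.34 ± 0.09 (SE; adjusted p = 0.0153), but not without Mock replicate 1 (-0.29, adjusted p = 0.0832) or FeSO4 replicate 2 (-0.25, adjusted p = 0.152). Mlst8, a core subunit of mTORC1, fell by 0.38 ± 0.11 (SE, adjusted p = 0.0198). With each library left out in turn the call was lost, while the log2 fold change stayed between -0.40 and -0.36. Tsc2, a subunit of the complex that turns off Rheb, fell by 0.24 ± 0.07 (SE, adjusted p = 0.0300). It lost the call without Mock replicate 2 and without either FeSO4 replicate. With each library left out in turn, its log2 fold change stayed between -0.29 and -0.21. Sesn3, of the sestrin family that restrains mTORC1, fell by 0.23 ± 0.07 (SE; adjusted p = 0.0258), but by 0.14 without Mock replicate 2, and lost the call there and without FeSO4 replicate 1 (range over the alternatives 0.00469 to 0.220). Without the filter on low counts, the calls of Castor2, Rragd, Nprl3, Mlst8, Tsc2 and Sesn3 were lost, and those of Castor1 and Akt1s1 held. Exons of Akt1s1, Nprl3, Mlst8 and Tsc2 overlap those of other genes. The single gene called higher was Rheb, the GTPase that switches on mTORC1, named after its values were seen. Its log2 fold change was 0.25 ± 0.07 (SE, adjusted p = 0.0237). The call held in 7 of 13 alternatives. It was lost with each library left out in turn, where the log2 fold change stayed between 0.23 and 0.26.

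Among enzymes that make or use the carried amino acids, Asns and Bcat1 rose and Cad and Glul fell. Of 27 listed, 25 were tested, of which 4 were higher and 2 were lower in FeSO4 (24.0%, against 20.0% of all genes), with a median log2 fold change of 0.07. With 1 library left out, which leaves 1 library in a group, each called gene kept its sign. The log2 fold change of Got1 then ranged from 0.13 to 0.40. Asns, which makes asparagine from aspartate and glutamine, went from 4.07 and 6.03 CPM in Mock to 15.6 and 20.1 CPM in FeSO4 (log2 fold change 1.82 ± 0.19, SE; edgeR adjusted p = 3.86e-06). Bcat1, the cytosolic enzyme that transaminates leucine, isoleucine and valine, went from 6.14 and 5.19 CPM to 16.1 and 15.5 CPM (1.48 ± 0.16, SE; adjusted p = 5.61e-06). The groups lay far apart for both genes, and both calls held in 13 of 13 alternatives. An exon of Bcat1 overlaps a gene on the other strand.

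Cad, which starts pyrimidine synthesis from glutamine and aspartate, fell from 304 and 318 CPM in Mock to 242 and 212 CPM in FeSO4 (log2 fold change -0.45 ± 0.07, SE; edgeR adjusted p = 0.000225), in 13 of 13 alternatives. Glul, glutamine synthetase, fell by 0.34 ± 0.08 on the log2 scale (SE; edgeR adjusted p = 0.00618), with a Mock mean of 132 ± 6.39 CPM and a FeSO4 mean of 104 ± 12.1 CPM (SD). The Glul call was lost without Mock replicate 2 (-0.29, adjusted p = 0.0512), without FeSO4 replicate 1 (-0.23, adjusted p = 0.1) and without the filter on low counts, and its exons overlap a gene on the other strand. The transaminases Gpt2 (0.89 ± 0.29, SE; adjusted p = 0.0400) and Got1 (0.27 ± 0.09, SE; adjusted p = 0.0493) passed narrowly. Their calls held in 6 and in 3 of 13 alternatives, respectively, and without FeSO4 replicate 1 the value of Got1 was 0.13.

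**Figure D4:**
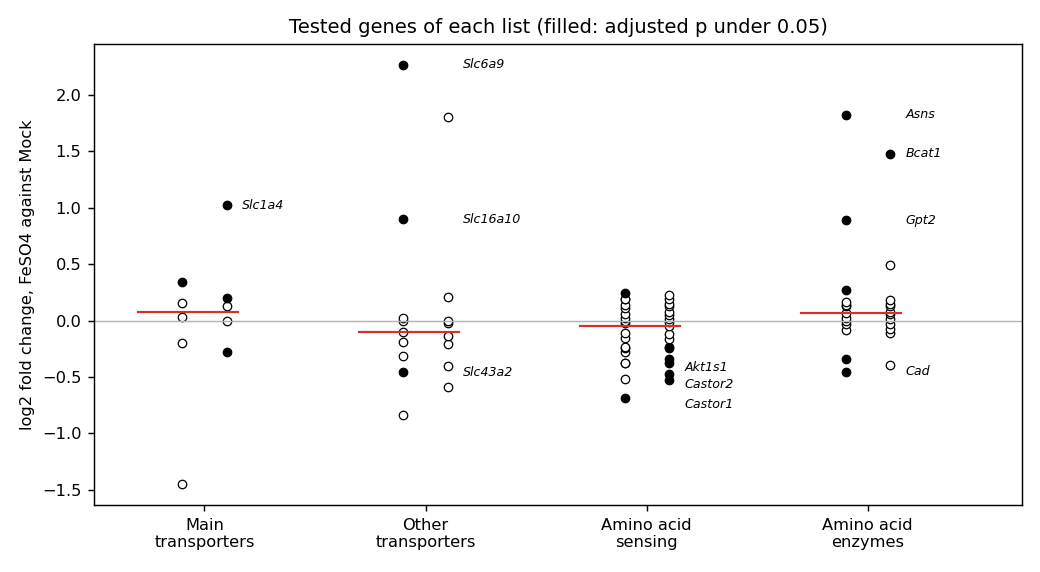
Log2 fold change, FeSO4 against Mock, of every tested gene among the 10 carriers, 17 other transporters, 35 amino acid sensing genes and 25 enzymes; filled points had an adjusted p under 0.05, red lines are list medians, and called genes beyond 0.4 in either direction are named. The medians lie at 0.08, -0.11, -0.05 and 0.07, close to 0, with single genes such as Slc6a9, Asns and Bcat1 far above.

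The search for TGATGNAA was extended to the promoters of the tested genes of these 4 lists after their values were seen. Among genes called higher, 9 of 10 had a window in the table used here and 3 held the motif (33.3%): Slc1a4, Asns and Got1. Slc1a4, where the match was found before the search was extended, is counted among these 3. Of 13 alternatives, the call of Asns held in 13, that of Slc1a4 in 11 and that of Got1 in 3. Among genes called lower, 11 of 12 had a window and 0 held it, and of 65 genes tested but not called, 50 had a window and 2 of these held it. Over all 27025 genes with a window the share was 4.51%. The matches in the enzymes are shown beside that of Slc1a4 above, with capitals again marking the match.
Asns promoter (chr6:7693216-7693243, minus strand): tcccagccacaTGATGAAActtcccgca
Got1 promoter (chr19:43524691-43524718, minus strand): cattgcattggTTGCATCAtacaagcct
The match begins at -23 in Asns and at -102 in Got1, where it reads TGATGCAA on the other strand, the same letters as in Slc1a4. The gene groups were formed from calls in these same data, in lists chosen with earlier results known. The counts describe the letters in the windows, and no test was run on them. Whether ATF4 acts at these sites was not tested.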

How the data were processed

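RNA-seq of iTreg cells was analysed in 2 Mock and 2 FeSO4 libraries, with groups taken from the labels. The authors deposited raw read counts per Ensembl gene, not normalized. The submitters' processing notes name Trim Galore 0.6.7, STAR 2.7.9a, featureCounts and build mm10. The methods name mm9 with STAR, so the build of the counts is uncertain. The rows for reads without a gene carry class names of the kind htseq-count writes, so the counting program is uncertain too. The strand setting and annotation are not given in the sources used here. Rows without a gene were left out: reads without a feature (4.36 to 6.03% of a library), ambiguous (3.78 to 3.91%), of low quality (0.802 to 0.988%), unaligned (1.8 to 2.31%) and with several alignments (4.27 to 4.62%). Symbols matched 32799 of 47729 gene IDs.

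The test was run with edgeR 4.0.16 under R 4.3.3. After filterByExpr, 13732 genes with 99.95% of counts remained, which were scaled by TMM and tested, FeSO4 against Mock, with the quasi-likelihood F test and Benjamini-Hochberg adjustment over all genes kept. The SE is the absolute log2 fold change divided by the square root of F. Each SD comes from 2 values only, and the test borrows its spread from all genes (biological coefficient of variation 8.24%). Replicates differed beyond sampling noise (chi-square per degree of freedom 11.4 in Mock, 9.35 in FeSO4). A count of 0 allows up to 3 reads, or 0.0717 to 0.0876 CPM. Alternatives were other scalings and filters, DESeq2 1.42.0, limma-voom (limma 3.58.1), an earlier form of the edgeR fit (added after seeing the data), the replicate number as a block, and each library left out. The fit was tested on simulated data.

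Positions and promoter sequences are RefSeq's on GRCm38.p6. Exon lengths and overlaps come from GENCODE M1 (mm9), in which no exon of the 10 carriers overlaps another gene. The carriers and gene lists were chosen with earlier results of these data known. The text names all 10 carriers, each other transporter with an adjusted p under 0.05, and up to 6 genes of smallest p under that threshold among the sensing genes and the enzymes. Rheb, Tsc2, Sesn3, Slc6a14 and Slc7a11 are named beyond this rule, after their values were seen. Some listed genes are not reported here by name.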

Additional observations from a re-analysis of the deposited data

How the results depend on the processing

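The direction of 8 of the 10 carriers held in every alternative run; the exceptions were Slc38a2 (0.000986 without the filter on low counts, -0.0700 to 0.0578 with 1 library left out) and Slc7a1 (-0.0302 with library size only, -0.0308 to 0.0989 with 1 library left out). Of the 10 carriers, 1 was called higher and 0 were called lower by edgeR without the filter (4 and 2 at an unadjusted p under 0.05); DESeq2, run on the filtered genes only, called 3 higher and 1 lower. With edgeR 2 were lower with library size only, and 0 were lower at an adjusted p under 0.01. At the study's threshold 0 were lower without the filter, with at least 10 counts in every library, and with DESeq2. Counts of called genes with 1 library left out are not given here, because 1 group then holds 1 library. Among other transporters, 2 were lower with upper quartile scaling and with the earlier edgeR fit and 3 with library size only. Without the filter, and with at least 10 counts in every library, 1 was higher. Among sensing genes, 0 were higher with library size only and without the filter, where 2 were lower; with 1 library left out 0 to 1 were higher and 5 to 7 lower. Among enzymes, 2 were higher with library size only, without the filter (1 lower) and with DESeq2. The summed level moved to -2.99 CPM with library size only. Without the filter, 22164 genes were tested and 3.74% were called; library size only shifted the median log2 fold change of all genes by -0.06. The cause of the other shifts was not tested.

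Per the methods the libraries form 2 pairs from 2 independent experiments, but no source used here says that the replicate number marks the experiment, and deviations of same-numbered libraries correlated at 0.0293 over genes, so the libraries were not treated as pairs. With the replicate number as a block, 1847 genes were higher and 1580 lower, Slc38a1 passed (adjusted p = 0.0474; range over its alternatives 0.0474 to 0.337), 2 other transporters were lower and 2 sensing genes were higher. When 1 library is left out, the lone library of its group is assumed to vary like the other group. Slc43a1, with 5 to 44 reads per library, and Slc1a4, with 108 to 268, were limited by depth most among the carriers.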

Other observations

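Slc6a14, a transporter of neutral and cationic amino acids and not among the genes tested, had 80 reads in Mock replicate 1 and 0 in each of the other 3 libraries; it was singled out after its values were seen. In the same library the myeloid gene Lyz2 had 164 reads, against 8 in the other Mock library and 0 in the FeSO4 libraries, and 19427 genes had a read, against 17639 to 18597 elsewhere. Slc7a11, the cystine importer xCT, had 9 and 3 reads in Mock and 18 and 6 in FeSO4, and did not pass the filter on low counts.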
